A study of Mus musculus with 64 samples.

Results

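A set of 10 genes of the p53 pathway, the cell cycle brake and the Bcl2 family were followed through a transposon screen for diffuse large B cell lymphoma (DLBCL) in mice. They were chosen by name, as every line of the insertion table whose gene column names Trp53, Mdm2, Mdm4, Cdkn2a, Cdkn1a, Cdkn1b, Bcl2, Bcl2l1, Bcl2l11 or Mcl1. A line was found for 9 of the 10 genes, out of 17126 gene names in the table, and none for Cdkn1a. The 9 genes held 98 of 385883 lines. Of these, 96 were kept as insertions, an insertion being 1 genomic position in 1 sample, among 299594 insertions kept in all. They lay in 43 of 64 samples.

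The 64 samples came from 64 mice, 30 tumours and 12 tails from PiggyBac (PB) mice, and 11 tumours and 11 tails from Sleeping Beauty (SB) mice. PB mice (genotype label IMPB) and SB mice (IMSB) carry an ITP array of transposon copies and a constitutive transposase at Rosa26, in tails as in tumours, so that insertions also arise in tissue that is not a tumour. The methods give the SB crosses as Rosa26SB/+ with ITP1-C or ITP2-M, homozygous for the m3 allele of Blm, refer to earlier work for the PB mice, and give a mixed background of 3 strains, C57BL/6 and FVB among them, for all. Ages are not given in the sources used here. The tumours were labelled by site, mostly mesenteric mass, spleen or lymph node, and the tails, taken from other mice than the tumours, served as control tissue. A tumour sample is bulk tissue, so that an insertion in a small share of the cells and few reads recovered from it cannot be told apart. No expression was measured, and the labelled tissue was therefore not checked against cell markers.

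p53, encoded by Trp53, halts the cell cycle or starts cell death after DNA damage. Mdm2 and Mdm4 hold p53 down, and the Arf product of Cdkn2a blocks Mdm2, while its other product, p16Ink4a, blocks cyclin D kinases. Cdkn1a (p21) and Cdkn1b (p27) inhibit cyclin-dependent kinases. Bcl2, Bcl2l1 (Bcl-xL) and Mcl1 protect cells from apoptosis, and Bcl2l11 (Bim) is a BH3-only protein that opposes them and is needed for the removal of unwanted lymphocytes. A transposon can raise a gene from its own promoter or cut its transcript short, and which of these occurred was not measured here.

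PB inserts at the bases TTAA and SB at TA. Of the positions in the 10 genes that were hit in more than 1 sample, 6 are shown, because they are points at which different tumours carried an insertion at the same base. Each is given on the plus strand of GRCm38 (mm10), with the target motif in capitals and 10 bases on each side.
Bcl2l11 chr2:128129332-128129335, 2 PB tumours: ataaaatagtTTAAtaaccaccag
Bcl2l11 chr2:128138814-128138817, 2 PB tumours: gttcttttgaTTAAtgaagtaaat
Bcl2l11 chr2:128142171-128142174, 2 PB tumours: tgaaagttccTTAAatactgaaac
Trp53 chr11:69581909-69581912, 2 PB tumours: atgacttcacTTAAactttgacgc
Trp53 chr11:69582264-69582267, 2 PB tumours: gtatatgcacTTAAattatgctta
Cdkn2a chr4:89291440-89291441, 2 SB tumours: caggatcaggTAcgtattgaaa
All 6 positions were intronic. In 4 of the 6 the mice differed in the strand of the insertion. Trp53 chr11:69581909-69581912 and the Cdkn2a position were hit on the plus strand in both samples.

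Median reads on kept insertions ranged from 104091 to 136578.5 over the 4 groups. PB tumour 3 had 5721832, the most of any sample. Kept insertions numbered 756 to 10800 per PB tumour, 2035 to 7362 per PB tail, 760 to 8786 per SB tumour and 2537 to 7148 per SB tail. Line and number are joined in some sample names and separated in others, and whether this marks a batch is not stated. The joined form was used for 22 tumours and 5 tails of PB and for 11 tumours and 7 tails of SB, and the separated form for 8 PB tumours, 7 PB tails and 4 tails of SB. Counting intervals below are exact 95% intervals, and they cover counting error only. Those of rates pool all insertions of a group, so that variation between mice is not covered. Reads come from PCR and are not independent molecules.

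**Figure D1:**
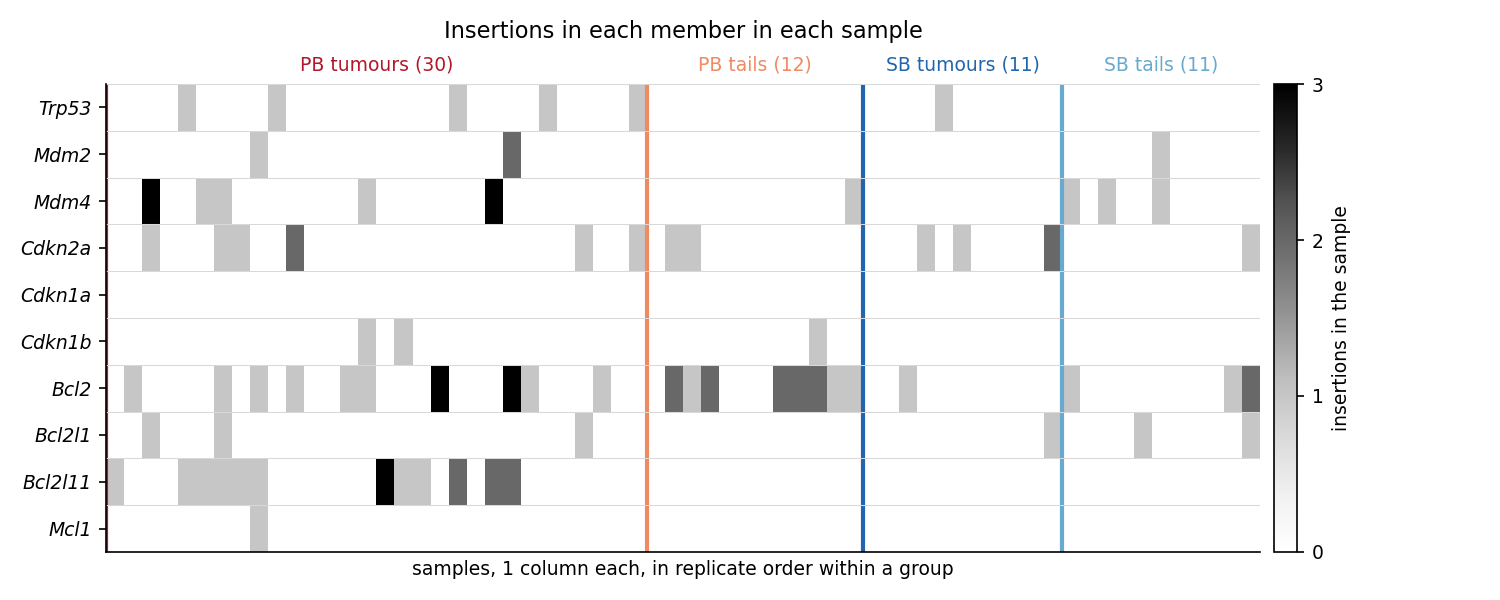
Insertions in each of the 10 genes (rows) in each of the 64 samples (columns, in replicate order within the 4 groups), shaded from 0 to 3 insertions. Bcl2l11 was marked in 12 PB tumours and in no other group, whereas Bcl2 was marked in 10 of 30 PB tumours and 8 of 12 PB tails.

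A PB tumour held between 0 and 7 insertions in the 10 genes, with a median of 2, and 24 of the 30 held at least 1. A PB tail held 0 to 3 (median 2), an SB tumour 0 to 3 (median 0) and an SB tail 0 to 4 (median 1). Per 10000 kept insertions, the 10 genes received 3.89 in PB tumours, 3.53 in PB tails, 1.60 in SB tumours and 2.17 in SB tails. The PB tumour with the most members was a lymph node tumour (PB tumour 7), with 1 insertion each in Bcl2, Bcl2l1, Bcl2l11, Cdkn2a and Mdm4.

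**Figure D2:**
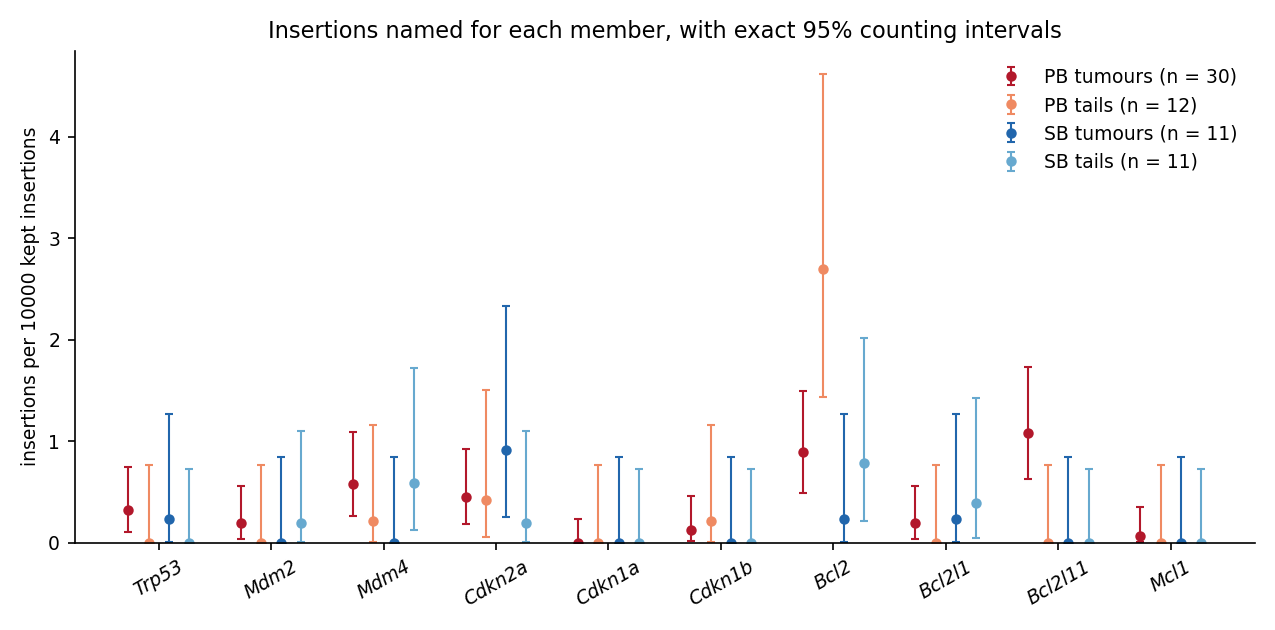
Insertions named for each gene per 10000 kept insertions of a group (y axis), with exact 95% counting intervals, with 1 colour for each tissue and system. The rates were highest for Bcl2 in PB tails (interval 1.44 to 4.62) and Bcl2l11 in PB tumours (0.631 to 1.73). Both intervals overlap those of the same gene in the other PB tissue (Bcl2 in tumours 0.488 to 1.497, Bcl2l11 in tails 0 to 0.767). Most other intervals also overlap.

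Bcl2l11, at chr2:128126038-128162547 on the plus strand, was the most widely hit of the 10 genes in tumours. It held 17 insertions in 12 of 30 PB tumours, and none in 12 PB tails, 11 SB tumours or 11 SB tails. The number per PB tumour ran from 0 to 3 with a median of 0. One mesenteric node tumour (PB tumour 16) held 3, and 3 tumours (PB tumours 20, 22 and 23) held 2 each. All 12 PB tails were at 0, a value that 18 of the 30 PB tumours shared, so the groups overlapped. Next to the gene, within 10 kb on either side, tails were also hit. There, 2 insertions lay in 2 PB tumours (0.127 per 10000), 2 in 2 PB tails (0.416 per 10000), of which 1 was 1.18 kb before the gene start, and 1, with 148 reads, in an SB tail.

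The rate of Bcl2l11 was 1.08 insertions per 10000 in PB tumours (0.631 to 1.73). Zero of 48121 insertions in PB tails allows up to 0.623 per 10000, counting 3 insertions over the group. The tumour rate was 1.74-fold that bound, a ratio that leaves out the counting error of the tumour rate. The exact interval in PB tails was 0 to 0.767, which overlaps that of the PB tumours. At the tumours' rate, 5.21 insertions would have been found in the tails. In edgeR's quasi-likelihood test of tumours against tails, with adjustment over all 3305 genes tested, Bcl2l11 did not pass (adjusted p = 0.052, unadjusted p = 0.0026). Of the genes tested, 2.15% were called higher in PB tumours. With TMM factors, which moved the median log2 difference of all genes from 0.20 to 0.40, Bcl2l11 passed (adjusted p = 0.030). Bcl2l11 reached the minimum of 10 insertions, for this test and for the test by samples hit, through its tumour insertions alone.

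The same comparison by samples hit (12 of 30 tumours, 0 of 12 tails) gave p = 0.0091 in a two-sided Fisher's exact test and an adjusted p of 0.26 over all genes. This test called 0.182% of genes higher in PB tumours. The form of the sample name moved with the result. Bcl2l11 was hit in 11 of 22 tumours with joined names and in 1 of 8 with separated names. Within joined names (11 of 22 tumours, 0 of 5 tails) the exact test gave p = 0.060 and an adjusted p of 0.67, and edgeR an adjusted p of 0.29. The tumours hit were also more richly covered, with a median of 6382 kept insertions against 3693 in the tumours not hit. With name form as a term in edgeR's fit, the log2 difference was 2.16 ± 0.77 (SE, adjusted p = 0.11), beside 2.39 ± 0.76 without it. Each SE given for edgeR was derived from the log2 difference and the F statistic of its test, not from the fit. With 0 of 12 tails hit, it is no guide to the precision of this difference. The part of name form and of the number of insertions in the difference was not otherwise tested.

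Against a uniform spread over the TTAA sites of its chromosome, Bcl2l11 was called in PB tumours. It has 177 TTAA sites, for which 2.08 insertions were expected in PB tumours, and 17 were observed, a ratio of 8.16. Over all gene bodies together the ratio was 1.38. Bcl2l11 passed the one-sided Wald test after Bonferroni correction (adjusted p = 5.5e-14), as did 4.97% of 22553 genes, and it ranked 243 by p. The call held with an exact Poisson test (adjusted p = 2.3e-06), when insertions under 10 reads were left out (7 observed, 0.770 expected) and with each position counted once per group (14 observed, a ratio of 6.99). In PB tails 0.657 insertions were expected and 0 observed. In SB tumours 0.533 were expected and 0 observed.

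Most insertions in Bcl2l11 lay in the second intron, which took 12 of the 17, in 9 tumours, between 3.05 and 16.1 kb from the gene start. Intron 1 held 1, intron 3 held 2 and the 3′ UTR in exon 4 held 2. The strand was that of the gene in 9 and the opposite in 8. Counted by tumour, 6 tumours had more insertions on the gene's strand and 6 more on the other (two-sided exact sign test, p = 1). The 3 repeatedly hit positions printed above accounted for 6 of the 17 insertions. Among all insertions in PB tumours, 7.57% lay at a position hit in more than 1 PB tumour. The 3 pairs of tumours concerned shared between 17 and 23 positions genome-wide, which was 0.383% to 0.507% of the smaller sample, against a median of 0.389% over all 435 pairs of PB tumours.

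Bcl2l11 insertions were found at several sites of disease, in 4 of 9 mesenteric masses, 3 of 5 tumours labelled LN, 2 of 6 mesenteric nodes, 2 of 6 spleens and the 1 cervical node. Read numbers ran from 2 to 22 with a median of 8, against a median of 6 for all insertions in PB tumours, and the best placed (18 reads, PB tumour 22) ranked 241 of 6764 in its sample. By the tumours in which they were hit, the 3 genes most like Bcl2l11 were Cep85l (Jaccard index 0.58 over 41 tumours), Inpp1 (0.57) and Nfya (0.56). These indices are a description, since tumours with more insertions are hit in more genes.

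**Figure D3:**
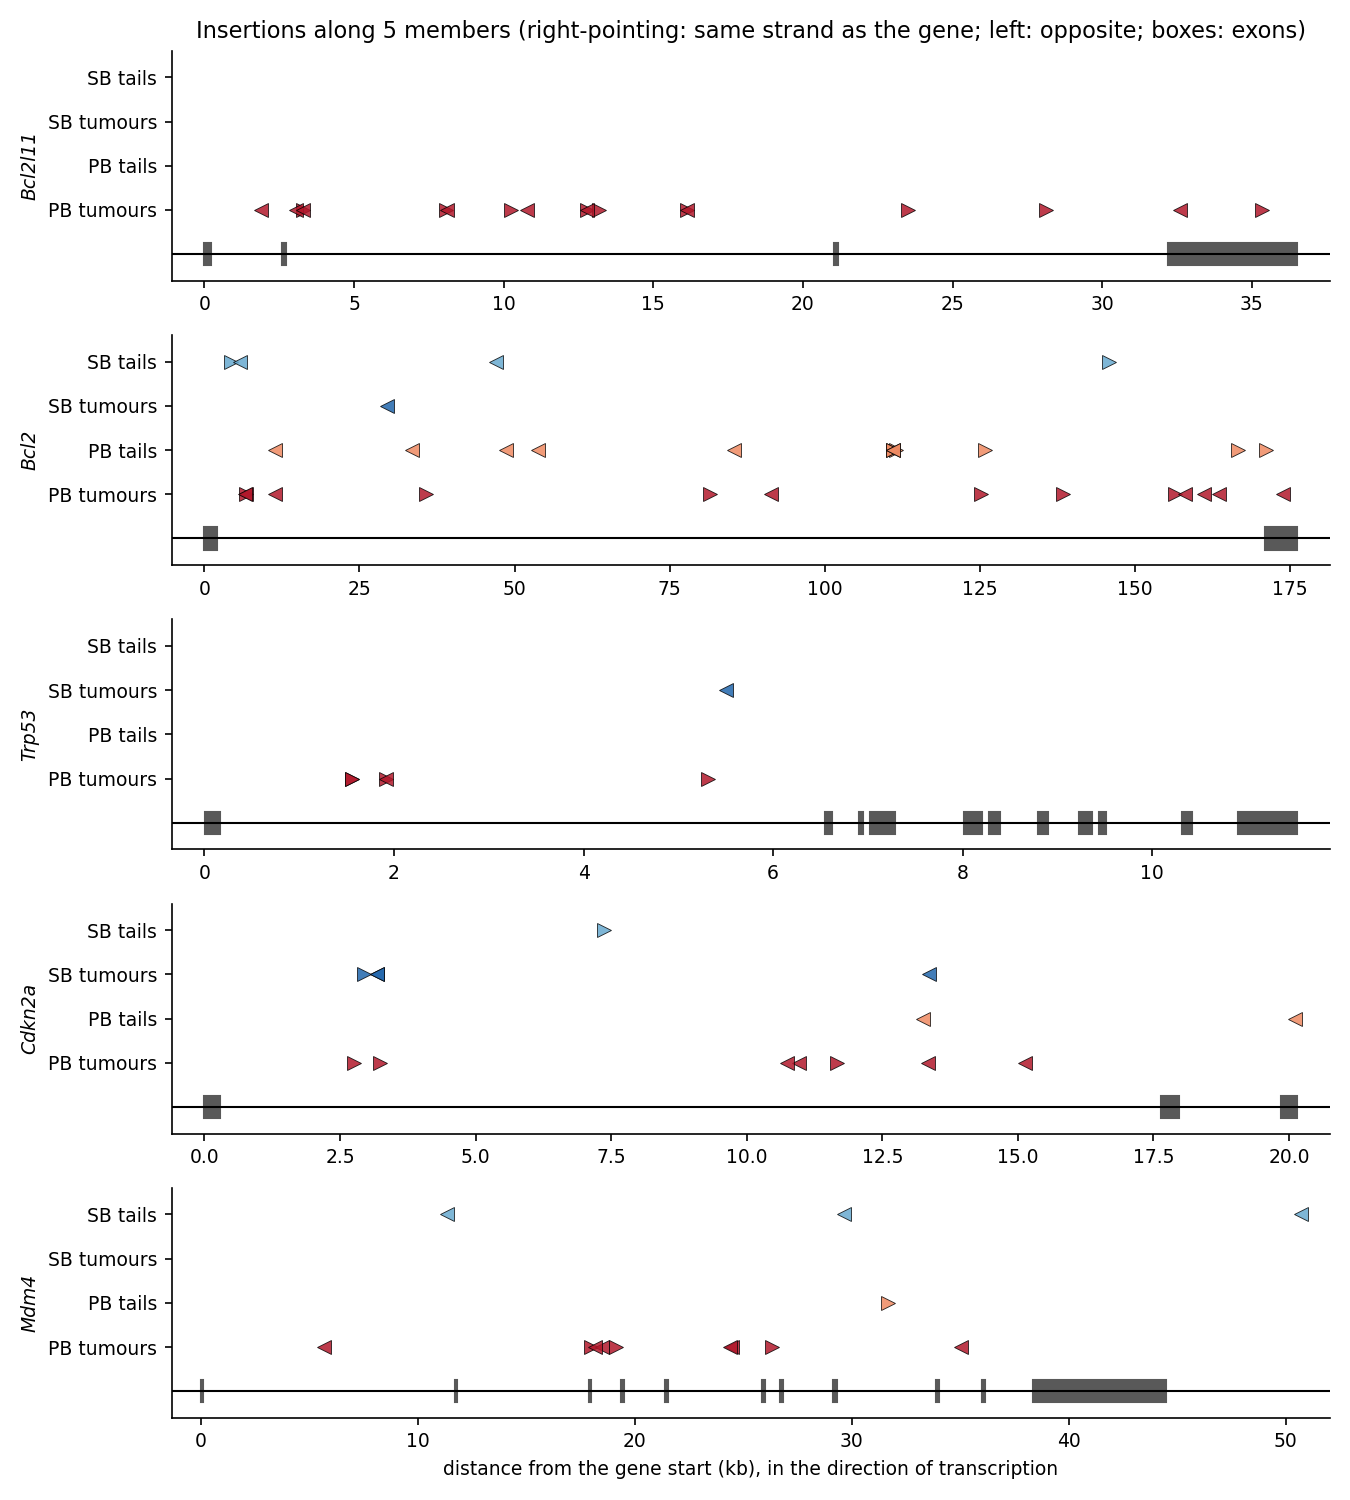
Insertions along Bcl2l11, Bcl2, Trp53, Cdkn2a and Mdm4, by distance from the gene start in kb along the direction of transcription (x axis) and by group (rows), with arrowheads pointing right for the strand of the gene and left for the opposite, and boxes for the exons of the longest RefSeq transcript. Most Bcl2l11 insertions lay in intron 2, all 6 in Trp53 lay in intron 1, and those in Bcl2 were spread over an intron of more than 150 kb.

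Bcl2, at chr1:106538176-106714290 on the minus strand, was hit in tumours and in tails. It held 14 insertions in 10 of 30 PB tumours and 13 in 8 of 12 PB tails. The number per PB tumour ran from 0 to 3 (median 0), and per PB tail from 0 to 2. Both groups held samples at 0, so they overlapped. The rate was 0.892 per 10000 in tumours (0.488 to 1.497) and 2.70 in tails (1.44 to 4.62), which was 3.03-fold higher in the tails. In SB the rates were 0.228 in tumours, from 1 insertion, and 0.788 in tails, from 4 insertions in 3 tails, and with 5 insertions in all Bcl2 fell below the minimum of 10 for a test there. None of the 10 genes reached it in SB, where 0.801% of 1124 genes were called, 0.623% higher and 0.178% lower in tumours.

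In edgeR's fit the log2 difference of PB tumours from tails was -1.35 ± 0.50 (SE), which did not pass (adjusted p = 0.092, unadjusted p = 0.0072). Of the genes tested, 2.30% were called lower in PB tumours. By samples hit, the two-sided Fisher's exact test gave p = 0.084 (adjusted p = 0.49). Within joined names edgeR's log2 difference was -1.40 (adjusted p = 0.30) and within separated names -0.87 (adjusted p = 0.63). With name form as a term in edgeR's fit, the log2 difference was -1.14 ± 0.53 (SE, adjusted p = 0.22). The change between tumour and tail in PB was not distinguishable from that in SB (edgeR interaction term, adjusted p = 0.9998), as for all 4292 genes tested, of which 395 had an unadjusted p under 0.05.

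The PB tails carried more insertions in Bcl2 than its 894 TTAA sites predict, 13 against 3.10 expected (Wald test, Bonferroni-adjusted p = 0.0026), where 1.25% of genes were called. The PB tumours did not, with 14 against 10.4 (adjusted p = 1). The tail call rests on the counting of shared positions, on low read numbers and on the test. With each position counted once per group, 10 insertions remained in PB tails against 3.04 expected and the call was lost (adjusted p = 1). It was also lost when insertions under 10 reads were left out, with 6 against 2.20 expected, a ratio of 2.72 (adjusted p = 1), and with the exact Poisson test (adjusted p = 0.50). Of the 13 tail insertions, 8 came from 5 of the 7 tails with separated names and 5 from 3 of the 5 with joined names. The part of name form and of sharing between libraries in this tail call was not tested.

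In PB tumours, the 14 insertions in Bcl2 lay at 14 positions. Of these, 13 were intronic and 1 lay in the 3′ UTR. In 3 tumours (PB tumours 15, 19 and 23) insertions lay close together, from 6.47 to 6.72 kb after the gene start, and 1 spleen tumour (PB tumour 19) and 1 mesenteric mass (PB tumour 23) held 3 insertions each. Strands were mixed, with 6 of 14 on the gene's strand. By tumour the strand favoured the gene in 4 and the opposite in 6 (two-sided exact sign test, p = 0.75, adjusted p = 1). This test called 0 of 3400 genes, with 91 at an unadjusted p under 0.05, so that no gene of the screen passed it.

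**Figure D4:**
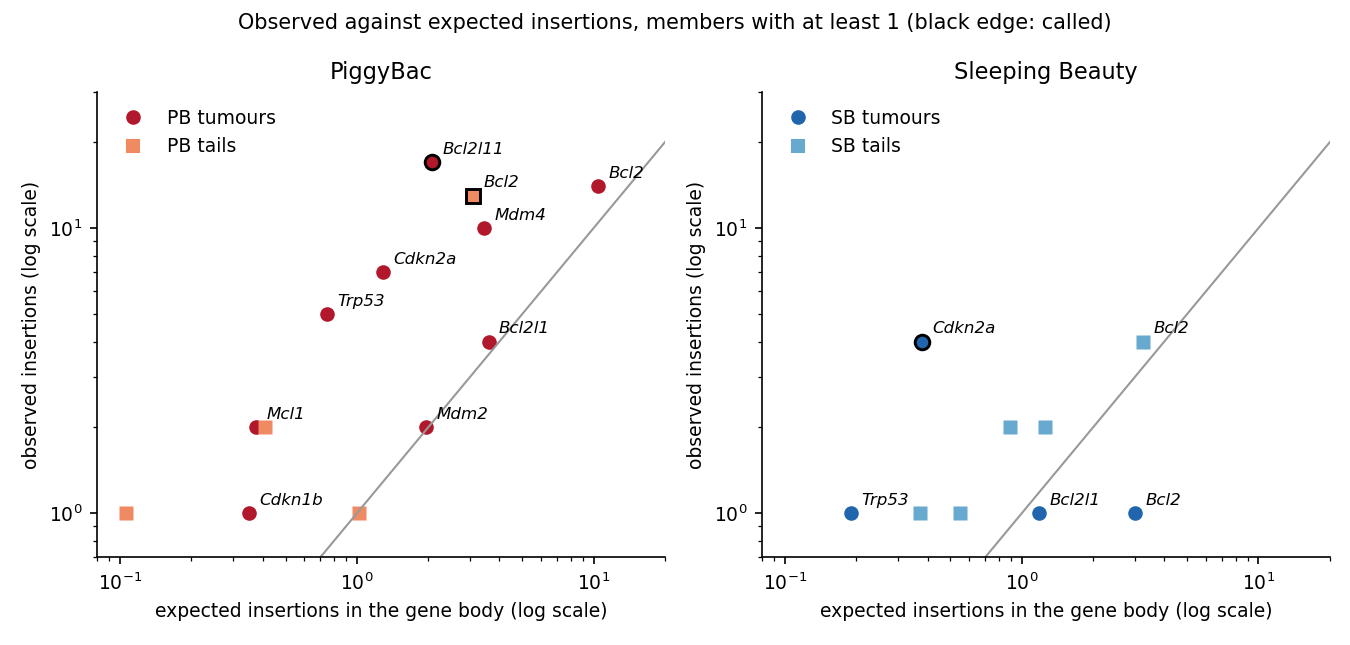
Observed insertions in each gene body (y axis, log scale) against the number expected from its motif sites (x axis, log scale) in PB (left) and SB (right), for genes with at least 1 insertion. The grey line marks equality and a black edge a call. Bcl2l11 in PB tumours (17 against 2.08), Bcl2 in PB tails (13 against 3.10) and Cdkn2a in SB tumours (4 against 0.380) were called.

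Cdkn2a, at chr4:89274473-89294619 on the minus strand, was hit in both systems. PB tumours held 7 insertions in 6 of 30 samples, PB tails 2 in 2 of 12, SB tumours 4 in 3 of 11 and SB tails 1 in 1 of 11. In SB the rate per 10000 was 0.913 in tumours (0.249 to 2.34) and 0.197 in tails (0.00498 to 1.10), and these intervals overlap widely. In PB it was 0.446 in tumours and 0.416 in tails, a ratio of 1.07. With fewer than 10 insertions in each system, Cdkn2a was tested between tumours and tails only in the interaction of PB and SB, where it did not pass (edgeR, adjusted p = 0.75).

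Against the uniform expectation, Cdkn2a passed in SB tumours, with 4 observed and 0.380 expected (Wald test, Bonferroni-adjusted p = 0.030). In SB tumours 0.398% of 23858 genes were called. The call was lost with an exact Poisson test (adjusted p = 1), with a minimum of 10 reads (adjusted p = 0.075), with predicted genes included (adjusted p = 0.055) and with 10 kb on both sides included, where the ratio was 4.91 in place of 10.5 (adjusted p = 1). It rests on a gene hit in the smallest number of tumours the test allows, which is 3. In SB tails none of the 10 genes was called, beside 0.18% of all genes. In PB tumours 7 were observed against 1.29 expected, a ratio of 5.43 that did not pass (adjusted p = 0.085).

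Of the 14 insertions in Cdkn2a, 13 lay in the first intron of the longer RefSeq transcript and 1, in a PB tail, in the 3′ UTR. That intron takes up most of the gene, from 0.285 to 17.6 kb of 20.1 kb. The gene has a second transcript that starts inside this intron. Of these 14, 9 lay before that start, among them 5 of 7 in PB tumours and 3 of 4 in SB tumours, and thus in the longer transcript alone, while 5 lay within both. In SB tumours, 2 samples (SB tumours 6 and 11) were hit at the position printed above, with 10 and 14 reads, and SB tumour 4 was hit 231 bp from it. These 2 tumours shared 20 positions in all, or 0.421% of the smaller sample. Over all 55 pairs of SB tumours the median was 0.187% and the maximum 1.30%. Among all insertions in SB tumours, 1.08% lay at a position hit in more than 1 SB tumour. Counting each position once was run for PB only, so its effect on the SB call was not tested.

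Trp53, at chr11:69580348-69591873 on the plus strand, was hit in 5 of 30 PB tumours and 1 of 11 SB tumours, once each, and in none of the 23 tails. All 6 insertions lay in intron 1, which precedes the coding exons. It is the longest intron, from 0.167 to 6.54 kb of an 11.5 kb gene. The 5 PB insertions used only 3 positions, 2 of which were each hit in 2 tumours, and 4 of the 5 were on the gene's strand. The rate was 0.319 per 10000 in PB tumours (0.103 to 0.744). The zero in PB tails allows up to 0.623 per 10000, so a difference was not detectable at this depth. The 5 PB insertions stood against 0.749 expected from 46 TTAA sites, a ratio of 6.67 that did not pass (adjusted p = 0.25), and counted once per position 3 stood against 0.709. Reads were few in PB tumours, between 2 and 17, while the SB tumour's insertion had 27 reads and ranked 650 of 6060.

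Neither inhibitor of p53 was called, except that Mdm4 passed against expectation in PB tumours with Benjamini-Hochberg adjustment or with its 10 kb flanks included (Wald test, Bonferroni-adjusted p = 0.0018). Mdm4, at chr1:132986105-133030587 on the minus strand, held 9 insertions in 5 of 30 PB tumours, 1 in 12 PB tails, 3 in 11 SB tails and 0 in 11 SB tumours. Of the 3 in SB tails, 1 lay 6204 bp past the annotated end. PB tumours 3 and 22 held 3 each, so that 6 of the 9 came from 2 mice. The log2 difference between PB tumours and tails was 0.83 ± 0.64 (SE), which did not pass (edgeR, adjusted p = 0.57). Of the 9, 4 lay in intron 3, in 4 tumours. Within the RefSeq gene body, 10 insertions in 6 PB tumours stood against 3.46 expected (adjusted p = 1). Mdm2, at chr10:117688875-117710758 on the minus strand, held 3 insertions in 2 PB tumours and 1 in an SB tail. One of the 3 lay in the 5′ UTR of exon 1, 1 in intron 5, both in PB tumour 23, and 1 lay 27 bp past the annotated end. Its gene body held 2 in PB tumours against 1.96 expected.

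Few insertions were found or expected in Cdkn1a and Cdkn1b. Cdkn1a, at chr17:29090979-29100722, had no insertion in any of 64 samples, and its 30 TTAA sites predict 0.374 in PB tumours, so fewer insertions than expected could not have been detected at this depth. Cdkn1b, at chr6:134920401-134925525, held 2 insertions in PB tumours and 1 in a PB tail. The tail insertion had 120 reads and ranked 170 of 3911 in its sample (4.35%), and lay in the 3′ UTR. Around Cdkn1b, the 10 kb on both sides held 7 more insertions in 6 PB tumours and 4 in 4 PB tails. With the flanks included Cdkn1b passed against expectation in PB tumours (ratio 5.28, adjusted p = 0.0073) and in PB tails (ratio 9.74, adjusted p = 0.0043), so that both tissues were above the uniform expectation there.

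The other protective Bcl2 family genes were not called. Bcl2l1, at chr2:152758732-152833803 on the minus strand, held 3 insertions in 3 PB tumours, 1 in an SB tumour and 2 in 2 SB tails, all in intron 2. Its gene body held 4 in PB tumours against 3.60 expected, a ratio of 1.11. Mcl1, at chr3:95656944-95663179 on the plus strand, is a short gene with 34 TTAA sites. It held 1 insertion in its 3′ UTR in a PB tumour, and a second lay in the gene body without carrying its name, against 0.376 expected.

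None of the 96 insertions was among the 100 with the most reads in its sample, where 1.93% of all insertions were in PB tumours and 2.30% to 2.59% in the other groups. In PB tumours 5 of 61 (8.20%) were in the top 10% of their sample by reads, where 10.4% of all insertions were, and 22 of 61 (36.1%) had at least 10 reads, where 36.2% of all had. The median number of reads was 7 in the 10 genes and 6 overall. In PB tails 9 of 17 (52.9%) had at least 10 reads, against 71.4% overall. The insertion placed highest by share of its sample was in Bcl2, with 32 reads and rank 209 of 6769 (3.09%) in PB tumour 9. The shares in PB tumours were near the background of that group. The strand was that of the gene in 29 of 61 insertions in PB tumours (47.5%), against 48.4% of all insertions in genes.

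**Figure D5:**
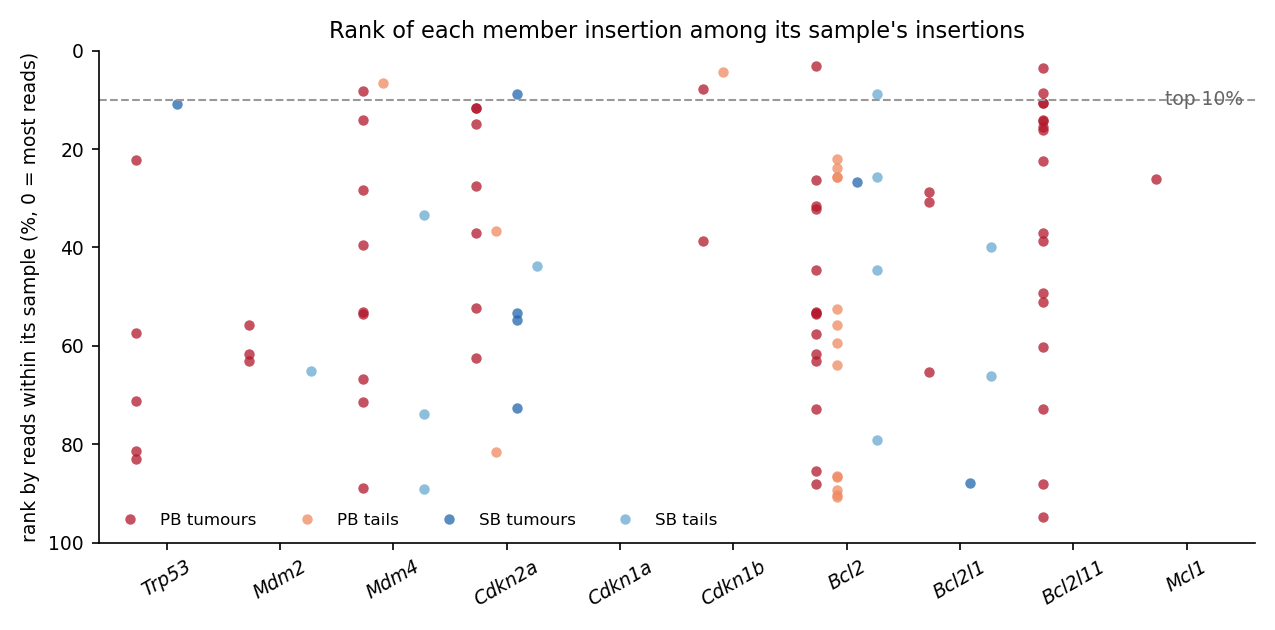
Rank by reads of each of the 96 insertions within its own sample, as a percentage where 0 has the most reads (y axis, reversed), by gene and group. The dashed line marks the top 10%. Insertions were spread over the whole range in Bcl2, Bcl2l11 and Mdm4, and 5 of 61 in PB tumours lay above the line.

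Other genes of the same pathways were taken from 3 lists of 57 genes. Of the p53 list (20 genes), 5 had enough insertions for the test of PB tumours against tails, with 1 lower and 0 higher. This was Trp63, a p53 relative of squamous epithelium, with 16 insertions in 13 of 30 tumours and 43 in 12 of 12 tails (log2 difference -2.90 ± 0.41 (SE), edgeR adjusted p = 1.9e-09). None of 4 genes of the cell cycle list and 1 of the Bcl2 list passed, where 4.45% of all genes did in either direction. The median log2 difference of the 10 genes tested was 1.02, beside 0.20 for all genes, and it was 0.42 with the 3 genes that had no tail insertion set to their bound of 3 insertions. Those 3 genes reached the minimum for the test through their tumour insertions alone. The lists were also chosen with earlier results of these data known, so the medians are a description only. Fisher's exact test on samples hit called none of the 57 in PB (0.212% of all genes) and none in SB (0.0890%).

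Against the uniform expectation, 8 of 55 genes of the lists outside the donor chromosome passed in PB tumours and 1 in SB tumours, beside 4.97% and 0.398% of all genes. Because the lists were chosen with earlier results of these data known, these counts are a description only. Cdk6, a kinase that cyclin D binds, held 67 insertions against 12.3 expected (adjusted p = 1.5e-39). Fbxw7, part of the ligase that removes cyclin E, held 56 against 14.7 in PB tumours (adjusted p = 1.8e-19) and was the one called in SB tumours, with 17 against 3.39. Its insertions carry the names of overlapping genes in the table. Cdkn2c (p18), an inhibitor of Cdk4 and Cdk6, held 12 against 0.713 and none in PB tails, where 0.227 were expected. The cyclins Ccnd3 (23 against 4.73) and Ccna2 (7 against 0.619) passed, and so did the p53 regulators Hipk2 (43 against 11.4) and Usp7 (18 against 4.17). Bid, a BH3-only protein like Bim, held 11 against 0.915 in PB tumours and none in PB tails, where 0.275 were expected. The other called genes were also counted in PB tails. There Fbxw7 held 11 against 4.66 expected, Cdk6 7 against 3.90, Hipk2 7 against 3.42 and Usp7 3 against 1.29. Ccnd3 held 1 against 1.36 and Ccna2 0 against 0.196. Of these 8, edgeR tested 6 between PB tumours and tails, and none passed, with adjusted p from 0.10 to 0.65. In PB tails the p53 list had 2 calls, Trp63 (43 against 5.61) and Perp, an epithelial adhesion gene that p53 can induce, with 7 against 0.289.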

How the data were processed

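Insertion sites of 64 mice were analysed. The authors deposited read counts per insertion, not normalized, beside a normalized coverage column (1 column, not used here), from splinkerette PCR of both transposon ends and paired-end MiSeq sequencing (QiSeq). The build is mm10 per the labels, and aligner and caller are not given in the sources used here.

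A position up to 5 bp from a TTAA (PB) or TA (SB) was set to that motif and counted once per sample. Sex chromosomes and the donor chromosome 14 were left out. The 2 lines of the 10 genes off a motif were dropped. A shared position is not reported here. Genes follow the table's gene column, and RefSeq bodies (GRCm38.p6) for expected counts, which are a chromosome's insertions times the share of its motif sites. Genes needed insertions in 3 samples and 5% of them to be called (one-sided Wald test, Bonferroni). Tumours and tails were compared with edgeR 4.0.16 (quasi-likelihood, total insertions as library size, at least 10 insertions, Benjamini-Hochberg) and Fisher's exact test, and strands with exact sign tests (at least 6 samples). DESeq2 1.42.0, TMM, read minimums and gene definitions were alternatives. Each SE for edgeR was derived from the log2 difference and the F statistic. Adjustment ran over all genes tested. The tests were checked on simulated data. Of 200 genes changed 4-fold, edgeR recovered 61 in PB and 82 in SB, with 5 and 3 false calls, so that it missed most. Of 200 genes raised 5-fold, the Wald test recovered 167 in PB tumours and 168 in SB tumours, with 6 and 5 false calls.

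The 10 genes and the lists were chosen with earlier results of these data known. Within the lists, genes with a call were named. R 4.3.3 and Python 3.11.15 were used.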

Additional observations from a re-analysis of the deposited data

Results flagged for a closer look

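Mdm4 and Mcl1 were singled out by insertions next to them without their name in the table, which do not enter their tests by gene name. The rule took genes with such insertions in at least 3 tumours of a system, at a higher rate than in its tails. At both genes such insertions lay in PB tumours and in no PB tail. Those inside a RefSeq body enter the counts by gene body, where Mdm4 was hit in 6 of 30 PB tumours and the log2 difference from tails was 0.94 in place of 0.83. Within 10 kb of Mdm4, or inside its RefSeq body but unnamed, 8 insertions lay in 8 of 30 PB tumours and 0 in 12 PB tails. Of the 8, 4 lay upstream, between 3.06 and 3.97 kb before the gene start and all on the strand opposite to the gene, 2 of them at the same base (PB tumours 1 and 25). At Mcl1, 5 such insertions lay in 4 of 30 PB tumours and 0 in PB tails. The highest had 122 reads but ranked only 2735 of 10800 in PB tumour 3, a sample with 5721832 reads. A count of 0 in PB tails allows 0.623 insertions per 10000, above the rates in PB tumours of 0.510 for Mdm4 and 0.319 for Mcl1, so neither difference was detectable at this depth. No SB sample had such an unnamed insertion at either gene. An insertion named for Mdm4, in SB tail 6, lay 6204 bp outside its gene body and is counted with the named ones. Cdkn1a and Cdkn2a also had 2 insertions each next to them in PB tumours and none in PB tails, but in fewer than 3 tumours.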

How the results depend on the processing

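Of 50 counts of called genes recomputed under an alternative, 31 stayed within 1.5 times the count reported and 19 did not. For PB tumours against tails (147 calls), the count was 71 with a minimum of 1 insertion, 64 with DESeq2, 33 within joined names and 28 within separated names, where fewer samples or genes were tested. TMM moved the split of calls from 48.3% to 73.7% higher in tumours. For SB (9 calls), DESeq2 gave 2. The interaction (0 calls) gave 1 with at least 10 reads and 1 with a minimum of 1 insertion. For PB tumours against expectation (1121) the count was 646 with the exact Poisson test, 2851 with Benjamini-Hochberg and 479 with at least 10 reads. For SB tumours (95) it was 32 and 307, for PB tails (282) 83 and 880, and for SB tails (43) 13 and 167, by Poisson and Benjamini-Hochberg. By samples hit in PB (7 calls), 40 were called with at least 10 reads, 1 within joined and 0 within separated names. Where no reason is given, the cause was not tested.

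For the 10 genes, the interaction estimate for Bcl2 turned from -0.25 to 0.035 with TMM and to 0.075 with at least 10 reads, all far from a call. Bcl2l11 in PB tumours against tails ranged over its alternatives in adjusted p from 0.030 (TMM) to 0.29 (joined names), without one from DESeq2 and below the minimum with at least 10 reads, and Bcl2 from 0.093 to 0.69. For Bcl2l11, DESeq2 gave a smaller log2 difference, 1.20 ± 0.85 (SE, DESeq2 unadjusted p = 0.16), than edgeR's 2.39 (unadjusted p = 0.0026). With Benjamini-Hochberg Trp53, Mdm4 and Cdkn2a, and with 10 kb flanks Mdm4 and Cdkn1b, passed against expectation in PB tumours. The alternatives within separated names, with name form as a term, with positions counted once and with all RefSeq records were chosen after seeing the data. No paired analysis was possible because no mouse gave both a tumour and a tail. Some names share a line and a number between tissues, what this marks is not stated, and no fit with it as a block was run. Genes with few motif sites, such as Cdkn1a, Cdkn1b and Mcl1, were expected to receive less than 1 insertion per group at this depth.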
